A study of Zea mays with 6 samples.

Results

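The 4 maize genes silky1 (si1, Zm00001d036425), zmm16 (Zm00001d042618), zag1 (Zm00001d037737) and zmm4 (Zm00001d034045) encode MADS-domain transcription factors of the flower. They were chosen by identifier, and all 4 were found among the 31470 genes listed for each library. The names came with the identifiers when the set was chosen. The files do not pair identifiers with names, and a RefSeq gene table of a newer B73 assembly lists 3 of the 4 names (not zmm4) without these identifiers, so the pairing was not checked. Mature anthers of the inbred line B104 were sequenced as 3 wild-type libraries and 3 libraries of a double mutant labelled ZmCOI2a-/-,ZmCOI2b-/-. COI-type F-box proteins bind and perceive the plant hormone jasmonate. The labels do not give the kind of mutant allele, nor whether replicates are separate plants, pools or repeat preparations, so the p-values describe the spread among these libraries, which may be technical. The question asked here is at what level these 4 transcripts stand in mature anthers and whether they differ between the genotypes. The targeted genes were not analysed here.

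In the textbook model of flower development, combinations of MADS-domain proteins give each whorl its identity. B-class proteins together with C-class proteins specify stamens, and C-class proteins alone specify carpels and end the growth of the floral meristem. In maize, loss of si1, the APETALA3-type B-class gene, turns stamens into carpel-like organs, and ZMM16, a PISTILLATA-type protein, binds DNA as a heterodimer with SI1. zag1 is an AGAMOUS-type C-class gene, whose loss mainly affects the determinacy of the ear floret. zmm4 belongs to the APETALA1/FRUITFULL group, which is linked to the floral transition and inflorescence development rather than to stamen identity.

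Both B-class genes were among the most abundant transcripts of the mature anther. In the wild-type libraries, si1 stood at 678, 638 and 1393 FPKM (fragments per kilobase of counted gene length, scaled to library depth) in replicates 1, 2 and 3, and in the mutant libraries at 841, 793 and 612 FPKM. Wild-type replicate 3 was far above the other 5 libraries, and the genotypes overlapped. Ranked by FPKM within a library, si1 lay between position 73 and position 181 of 31470 genes. It held 0.0997 to 0.227% of the library total, as recovered from the FPKM values. It was measured with 17509 to 40022 reads per library. For wild-type replicate 3, the 95% Poisson interval was 1379 to 1406 FPKM, so counting error is small beside the spread between libraries. Such intervals cover counting error only.

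zmm16, the partner of si1, stood at 447, 460 and 690 FPKM in wild type and at 575, 453 and 436 FPKM in the mutant. Again wild-type replicate 3 was the highest library, mutant replicate 3 the lowest, and the genotypes overlapped. Its position was 150 to 247 of 31470, with 9599 to 15137 reads per library. The level of si1 was above that of zmm16 in 6 of 6 libraries, by 1.39-fold to 2.02-fold. This order is per counted length, 1630 bp for si1 and 1244 bp for zmm16, and depends on these lengths. An exact sign-flip test over libraries gave a two-sided p of 0.0312, the smallest that 6 libraries allow. The adjusted p of this test over the 6 pairs of genes was 0.0375. Any pair with the same order in 6 of 6 libraries gets the p of 0.0312, so it only restates the order.

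The C-class gene zag1 was read at a far lower level. Its values were 6.89, 7.33 and 10.7 FPKM in wild type and 8.56, 7.81 and 5.35 FPKM in the mutant, with overlap between the genotypes. The highest value was again in wild-type replicate 3 and the lowest in mutant replicate 3. These values rest on 154 to 307 reads per library. The 95% Poisson intervals were 4.54 to 6.27 FPKM for mutant replicate 3 and 9.58 to 12.02 FPKM for wild-type replicate 3, so counting error is a visible part of the spread for this gene. Within a library, the level of si1 was 87.0-fold to 130-fold that of zag1, and the level of zmm16 was 58.1-fold to 81.4-fold that of zag1. The direction was the same in 6 of 6 libraries (exact sign-flip p = 0.0312 for each pair, adjusted p = 0.0375). That p follows from the shared direction and says nothing on the size of the gap.

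zmm4 was read at about the level of zag1, and it was the gene of the set with separate genotypes. It stood at 8.78, 8.26 and 13.1 FPKM in wild type and at 6.15, 4.84 and 5.72 FPKM in the mutant. Every mutant library lay below every wild-type library, a pattern that 28.6% of all tested genes had, and wild-type replicate 3 was once more the highest. The level of zag1 was above that of zmm4 in 2 of 6 libraries, mutant replicates 1 and 2 (ratio 0.786 to 1.61). It was below that of zmm4 in mutant replicate 3 and in every wild-type library. The exact sign-flip p of 0.812 pools the genotypes, so it cannot speak to the order within a genotype. The level per length hides a difference in reads: zmm4 had 513 to 1393 reads per library, more than zag1 in each library, over a counted length of 6040 bp against 1620 bp. FPKM divides the reads by this length, and which transcript forms the anthers hold was not measured.

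**Figure D1:**
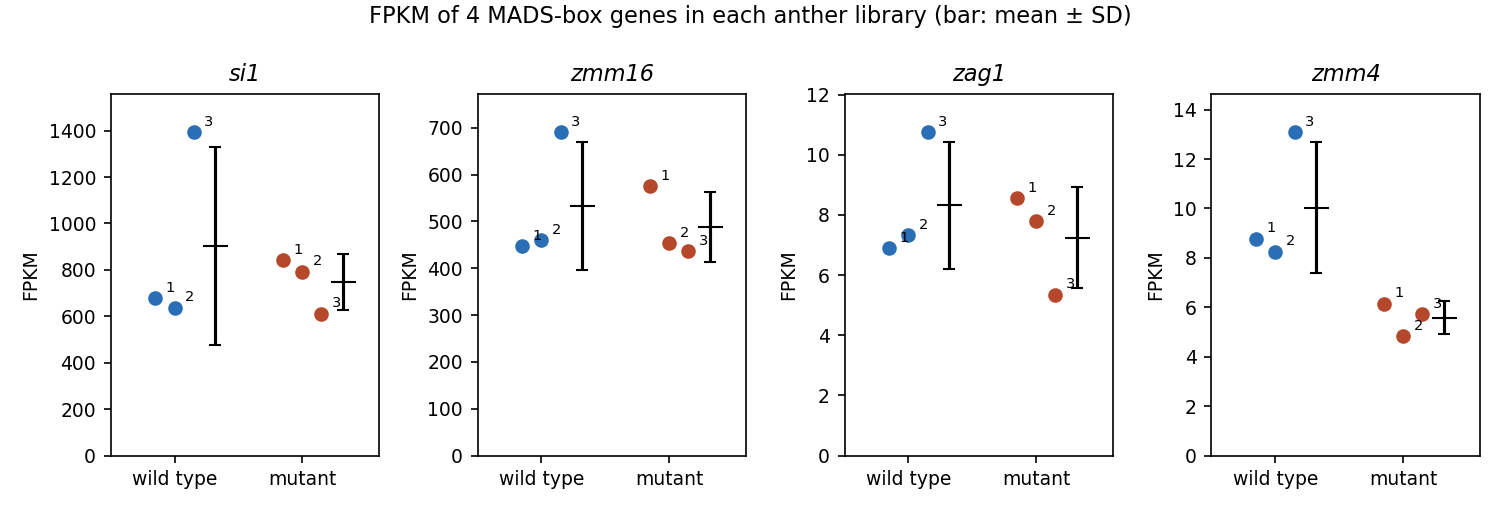
FPKM (linear axes from 0, a separate scale for each gene) of si1, zmm16, zag1 and zmm4 in 3 wild-type (blue) and 3 mutant (red) libraries, numbered by replicate, with the mean ± SD beside the points. The genotypes overlap for si1, zmm16 and zag1, while the 3 mutant values of zmm4 (4.84 to 6.15 FPKM) lie below its wild-type values (8.26 to 13.1 FPKM).

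All 4 genes passed the abundance filter of at least 1 FPKM in at least 3 libraries, which left 18984 genes for the comparison of genotypes with limma on log2(FPKM + 1), a scale on which changes of genes with low FPKM look smaller than they are. None of the 4 was called at an adjusted p under 0.05, beside 6.65% of all tested genes in both directions and 4.75% called lower in the mutant. At an unadjusted p under 0.05, 1 of the 4, zmm4, passed, beside 28.5% of all tested genes, and limma-voom on the recovered reads called 0 of 4, beside 7.4%. With 4 genes, a count of 0 at such a background says little about the set. In bulk anthers, fewer cells with a transcript and less of it per cell cannot be told apart.

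si1 averaged 748 ± 121 FPKM in the mutant against 903 ± 425 in the wild type (SD, n = 3 each). On the log2(FPKM + 1) scale the mutant was at -0.19 relative to wild type (SE 0.32; adjusted p = 0.726 by limma), with a 95% interval on the fold from 0.526 to 1.47. The direction rested on wild-type replicate 3, which was 2.12 times the mean of the other two wild-type libraries. Without it the log2 fold change was 0.17. Scaling the libraries by the median of ratios also turned the sign, to 0.091. For zmm16, the means were 488 ± 75.5 FPKM in the mutant against 532 ± 137 in the wild type (SD, n = 3 each). The log2 fold change came to -0.11 with an SE of 0.23 (adjusted p = 0.787 by limma, fold interval 0.640 to 1.35). This sign, too, turned without wild-type replicate 3 (0.095) and with median-of-ratios (0.17) or upper-quartile scaling (0.062). The B-class genes thus differed between genotypes by less than the spread between libraries, and the intervals leave room for falls to 0.526 and 0.640 of the wild-type level or rises to 1.47-fold and 1.35-fold.

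zag1 averaged 7.24 ± 1.68 FPKM in the mutant against 8.32 ± 2.11 in the wild type (SD, n = 3 each). The mutant differed by -0.18 on the log2(FPKM + 1) scale, with an SE of 0.23, a fold interval on that scale of 0.614 to 1.27 and an adjusted p of 0.634 by limma. It was 0.0016 without wild-type replicate 3, 0.00023 without mutant replicate 3 and 0.072 with median-of-ratios scaling, so no direction can be given for zag1.

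For zmm4 the means were 5.57 ± 0.668 FPKM in the mutant against 10.04 ± 2.65 in the wild type (SD, n = 3 each), a ratio of means of 0.555. The log2 fold change on the log2(FPKM + 1) scale was -0.73 (SE 0.20). The limma p was 0.00734 before adjustment and 0.0684 after it, which missed the threshold. On that scale the 95% interval on the fold, not adjusted for the number of genes, ran from 0.435 to 0.837. Tested genes as a whole were shifted downwards, with a median log2 fold change of -0.20, and 9.20% of them had a lower fold change than zmm4. With median-of-ratios scaling, which moved that median to 0.025, the log2 fold change of zmm4 was -0.48 and 10.03% of tested genes lay below it. The value stayed negative in all 15 alternative settings, from -0.84 to -0.48. The adjusted p ran from 0.0501 with limma-voom on the recovered reads to 0.231 without mutant replicate 2. In that last fit only 50 of 18984 tested genes were called. There zmm4 had a log2 fold change of -0.65 and an unadjusted limma p of 0.0315.

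**Figure D2:**
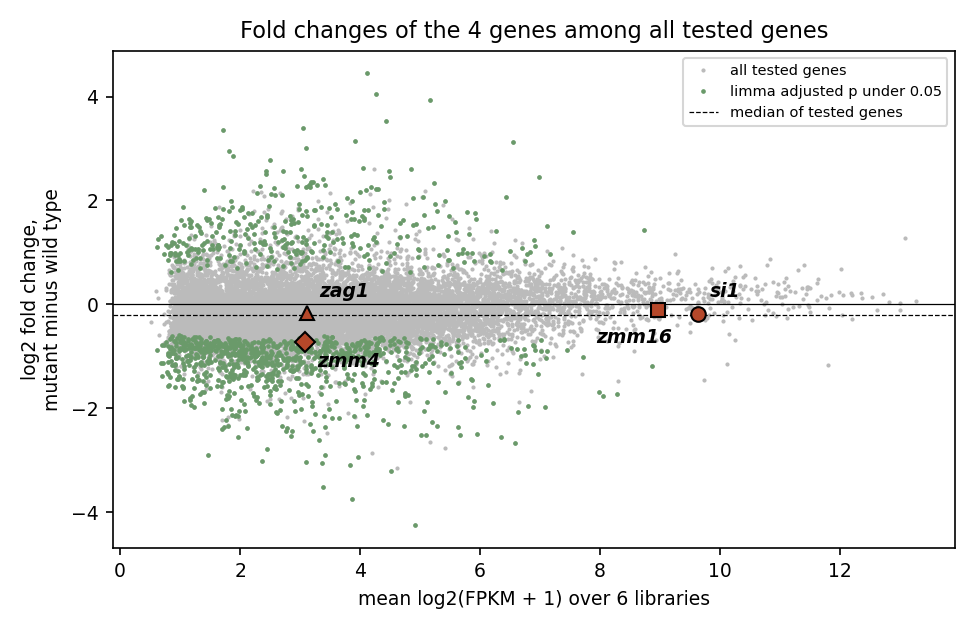
Log2 fold change (mutant minus wild type) against mean log2(FPKM + 1) over 6 libraries for 18984 tested genes (grey; green where the limma adjusted p was under 0.05), with the 4 MADS-box genes marked in red and the median of tested genes (-0.20) dashed. si1, zmm16 and zag1 lie close to the dashed line, and zmm4 lies at -0.73, near the edge of the called falls.

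Wild-type replicate 3 gave the highest value of 4 of 4 genes, and it was also the highest library for 41.3% of all tested genes. Mutant replicate 3 gave the lowest value of 3 of 4 genes, against 19.7% of tested genes. zmm4 was lowest in mutant replicate 2, as were 32.9% of tested genes. Relative to the mean of wild-type replicates 1 and 2, wild-type replicate 3 was higher by 1.08 for si1, 0.61 for zmm16, 0.53 for zag1 and 0.57 for zmm4 on the log2(FPKM + 1) scale. The median of all tested genes was 0.15 on that measure, and 95.9% of them lay below si1, against 82.5% below zmm16, 78.9% below zag1 and 80.4% below zmm4. On a principal component analysis of all tested genes, wild-type replicate 3 lay at 47.3 on the second component, away from wild-type replicates 1 and 2 at -9.24 and -37.1. On the first component, which held 52.8% of the variance, wild-type replicates 1, 2 and 3 lay at 24.3, 41.0 and 45.8. There replicate 3 was close to replicate 2. The labels name no batch. What sets this library apart was not tested.

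**Figure D3:**
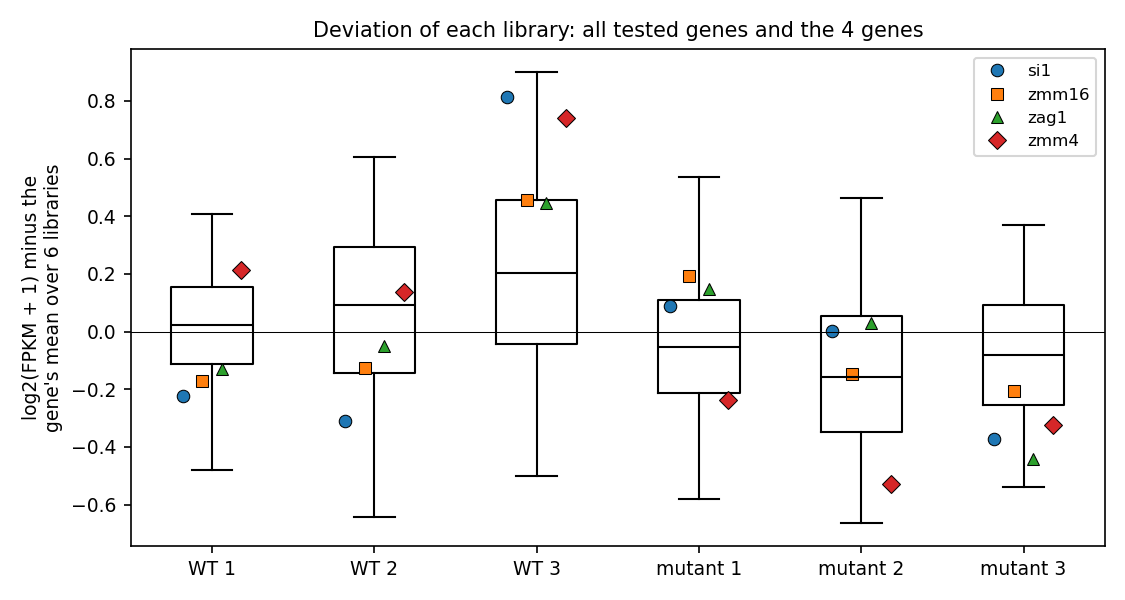
Deviation of log2(FPKM + 1) in each library from the gene's mean over 6 libraries, as boxes for all tested genes (line: median; box: quartiles; whiskers: 5th to 95th percentile) and as symbols for the 4 genes, with WT for wild type. In wild-type replicate 3 the 4 symbols lie above the median of all tested genes, and si1 and zmm4 lie above the box.

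Ratios between the genes within a library do not depend on how libraries are scaled. The ratio of zmm16 to zmm4 was 50.9, 55.7 and 52.8 in wild-type replicates 1, 2 and 3, and 93.5, 93.7 and 76.2 in the mutant libraries. All mutant ratios lay above all wild-type ratios, as they did for 17% of the 18983 other tested genes set against zmm16 in the same way. This was a difference of 0.72 on the log2 scale, or 1.65-fold. The ratio of si1 to zmm4 was 77.3, 77.2 and 106 in wild type and 137, 164 and 107 in the mutant (1.56-fold). Here mutant replicate 3 and wild-type replicate 3 nearly met, at 106.9 and 106.5. Set against si1, 7.43% of the other tested genes had separate genotypes in this direction. The ratio of zag1 to zmm4 was 0.786, 0.888 and 0.822 in wild type and 1.39, 1.61 and 0.935 in the mutant (1.54-fold), and 8.49% of the other tested genes were separate in this direction when set against zag1. Each of these 3 ratios had an exact permutation p of 0.1 (two-sided), the smallest that 3 against 3 libraries allow, and an adjusted p of 0.2 over 6 pairs, so none can pass at this size. They share the zmm4 values and are not separate observations of its change.

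Among si1, zmm16 and zag1, the ratios did not separate the genotypes. The ratio of si1 to zmm16, the B-class partners, was 1.52, 1.39 and 2.02 in wild type and 1.46, 1.75 and 1.40 in the mutant, a log2 difference of -0.081 (exact permutation p = 0.7). That of zmm16 to zag1 was 64.8, 62.8 and 64.2 in wild type, with zag1 at 193, 200 and 307 reads. At so few reads, counting error alone is wider than the spread of these ratios, so their closeness is not read as a result. In the mutant it was 67.1, 58.1 and 81.4, with overlap between the genotypes (exact permutation p = 0.7). The ratio of si1 to zag1 was 98.4, 87.0 and 130 in wild type and 98.2, 102 and 114 in the mutant (exact permutation p = 1). The adjusted p over 6 pairs was 0.84 or more for these 3.

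**Figure D4:**
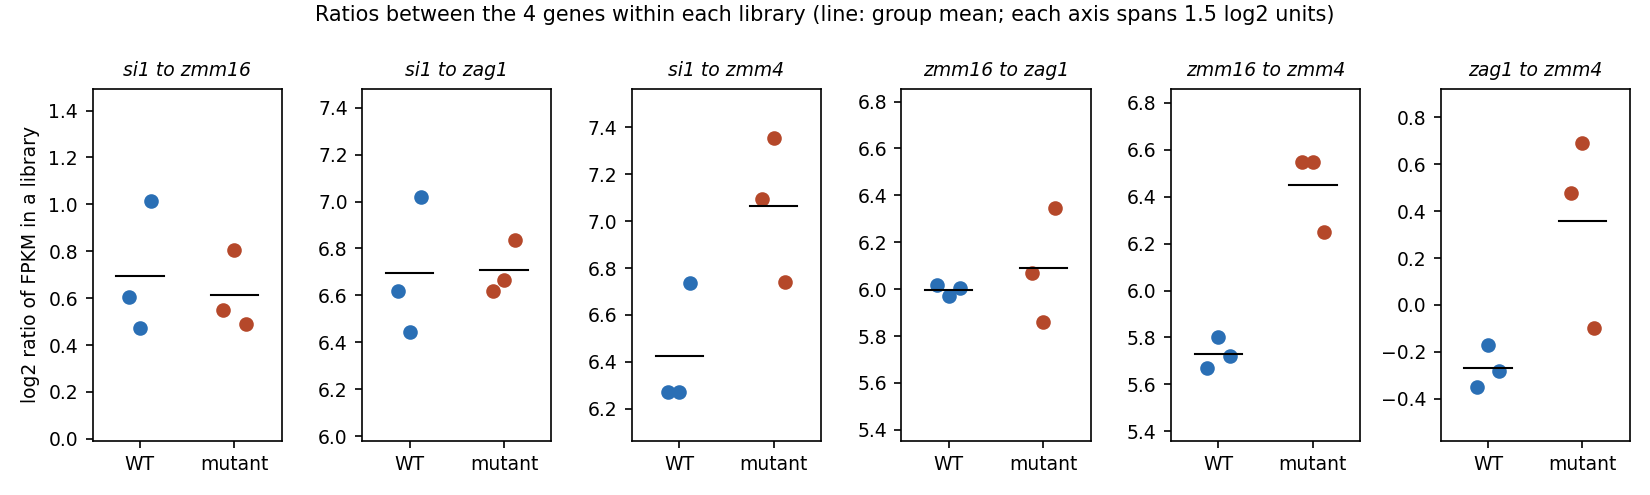
Log2 ratio of FPKM between each pair of the 4 genes within each library, for 3 wild-type (WT, blue) and 3 mutant (red) libraries, with a line at the group mean and axes of equal span. The genotypes overlap in the ratios among si1, zmm16 and zag1 and are separate in the 3 ratios to zmm4.

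The likeness of expression patterns was described by Pearson's r of log2(FPKM + 1) over the 6 libraries, with no test, since all genes share the same 6 libraries. For si1, zmm16 ranked 354th and zag1 615th in likeness among 18983 other tested genes (r = 0.93 and 0.91), and zmm4 ranked 4857th (r = 0.61). Without wild-type replicate 3, r with si1 was 0.74 for zmm16, 0.84 for zag1 and -0.45 for zmm4. The likeness of zmm4 to si1 thus rested on that library, and that of zmm16 and zag1 was weaker without it. The ranks were taken with that library included. The gene most like si1 lies on chromosome 1 (124401613 to 124405459 on B73 RefGen_v4, r = 0.997) and was low, at 1.98 ± 0.428 FPKM in the mutant against 2.77 ± 1.95 in the wild type (SD, n = 3 each). Most like zmm16 was a gene on chromosome 2 (33956257 to 33959338, r = 0.994), and most like zag1 a gene on chromosome 3 (203608743 to 203613188, r = 0.998). A gene on chromosome 4 (220381 to 224895, r above 0.999) was most like zmm4, at 11.1 ± 1.48 FPKM in the mutant against 20.1 ± 5.59 in the wild type (SD, n = 3 each; log2 fold change -0.77, limma adjusted p = 0.0669). With 6 libraries and this many genes, an r near 1 was found for each of the 4 genes. These most alike genes were picked over the same libraries. Their differences between genotypes therefore follow from the choice and are not separate observations.

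The 4 genes lie apart in the genome, and no listed gene overlaps any of them. On B73 RefGen_v4, si1 lies on chromosome 6 (87897599 to 87902270, plus strand) and zag1 on the same chromosome at 135893605 to 135901920, plus strand. zmm16 lies on chromosome 3 (174084397 to 174087054, plus strand). zmm4 lies on chromosome 1 (282136174 to 282165980, minus strand), and its span of 29807 bp, of which 20.3% was counted, is the longest of the set. The counted part was 34.9% of the span for si1, 46.8% for zmm16 and 19.5% for zag1. MADS-box genes of this type commonly have large introns.

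Neighbouring listed genes did not share the level of the B-class genes. The next gene after si1, 51.6 kb away, had 0 FPKM in each mutant library and 0.0150 ± 0.0260 in wild type (SD, n = 3), and the next after zmm16, 4.69 kb away, had 0.0191 ± 0.0331 in the mutant (SD, n = 3) and 0 in each wild-type library. The genes before them, 97.0 and 51.6 kb away, stood at 105 ± 14.2 and 140 ± 33.8 FPKM in wild type (SD, n = 3). zag1 is followed, 58.0 kb away, by a gene read at 2169 ± 14.4 FPKM in the mutant against 1919 ± 575 in the wild type (SD, n = 3 each), far above zag1 itself. The closest neighbour of the set ends 44 bp from the end of the zmm4 model, on the opposite strand, so that both genes point towards each other. It stood at 4.73 ± 0.433 FPKM in the mutant against 5.42 ± 0.999 in the wild type (SD, n = 3 each; log2 fold change -0.15, limma adjusted p = 0.594). No strand setting is given in the sources used here, so reads that run past the end of either gene cannot be assigned with certainty. On the other side of zmm4, 138 kb away, a gene on the same strand stood at 1.53 ± 0.283 and 2.31 ± 0.372 FPKM in mutant and wild type (SD, n = 3 each; log2 fold change -0.39, limma adjusted p = 0.175). Of the 6 neighbours that passed the abundance filter, 0 were called, beside 6.65% of all tested genes, and 1, this last gene, had an unadjusted limma p under 0.05 (0.0495), beside 28.5%. These counts are too small to set apart from the background.

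A list of 35 other maize MADS-box symbols, covering B-class, C-class, E-class, AGL6-type and APETALA1/FRUITFULL-type genes, was drawn up for comparison. The RefSeq table holds 20 of them as a symbol or synonym, among them sts1 as another name of zmm16, but 0 could be tied to an identifier of the files. Their values were therefore not analysed here, and this holds for zmm2, another AGAMOUS-type gene of maize, which is known to be expressed in stamens.

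**Figure D5:**
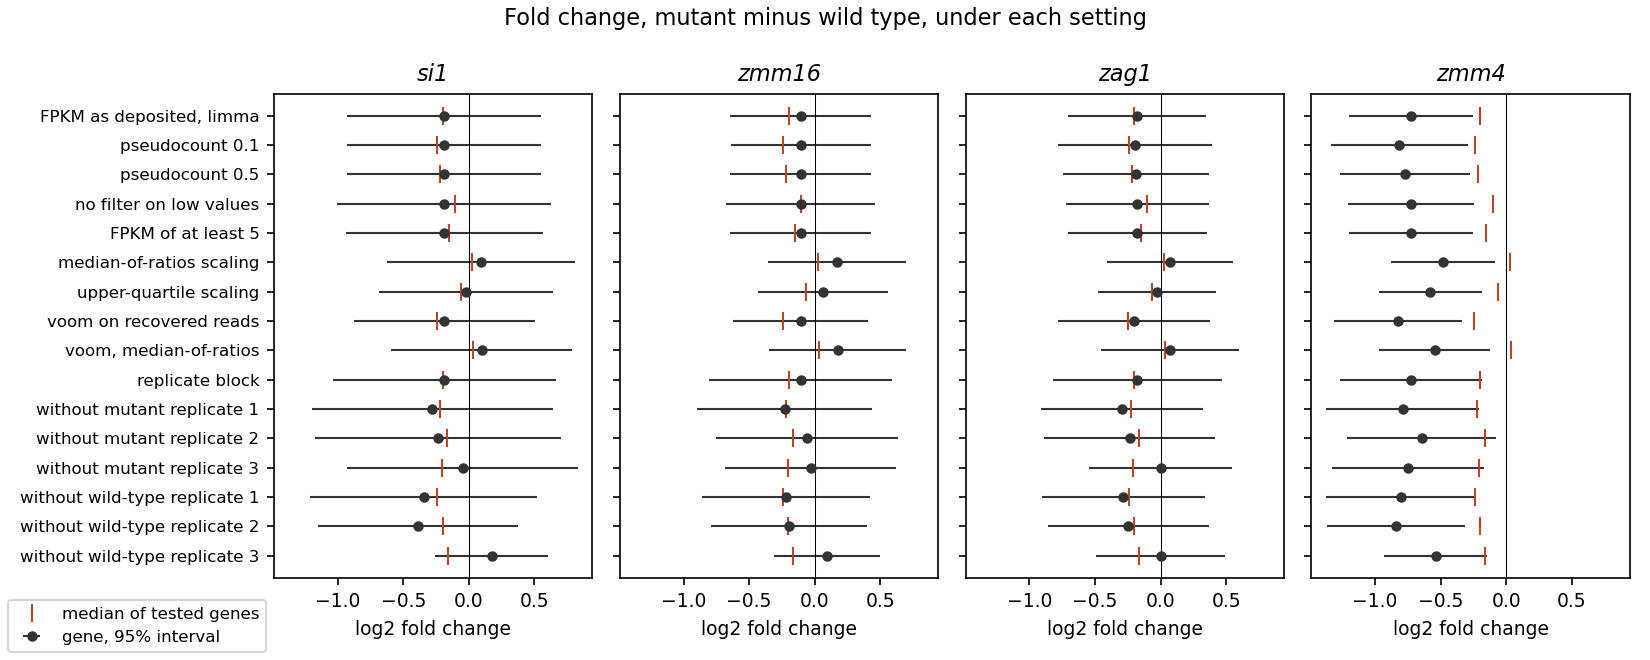
Log2 fold change (mutant minus wild type) of each gene with its 95% limma interval (points and lines), beside the median of the tested genes (red ticks), for FPKM as deposited and 15 alternative settings. The intervals of si1, zmm16 and zag1 include 0 in each setting, and those of zmm4 lie below 0 in each setting although its adjusted p, over all tested genes, was never under 0.05.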

How the data were processed

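The 3 mutant and 3 wild-type libraries were grouped by their labels. The authors deposited 1 FPKM value per gene and library. The headers do not name the unit, which was taken from the values. Per the submitters' processing notes, the tools were HTSeq 0.6.0, HISAT2 2.1.0 and Bowtie2 2.2.3, with no role stated, and the build was B73 RefGen_v4. The sources used here give neither strand setting nor filters.

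Whole reads and counted lengths were recovered for 31465 of 31470 genes (within 0.0001 reads plus 3e-09 per read). Library totals, also recovered from the values, were 16845656 to 17759978 reads. The recovered gene reads made up 99.6% of the total in each library, so these totals need not be the full sequencing depth. The test of genotype was limma (3.58.1, R 4.3.3) applied to log2(FPKM + 1) with trended variance and without covariates. It covered the 18984 genes that reached 1 FPKM in 3 or more libraries, two-sided, with Benjamini-Hochberg adjustment over all of them. Alternatives were pseudocounts of 0.1 and 0.5, other filters and scalings, limma-voom on recovered reads, a replicate block and each library left out. The genes, lists and rules were chosen with earlier results of these data known. The rule for named genes took the 4 genes, the gene most like each and the nearest listed genes. A planned comparison of protein and promoter sequences was not run, since no such sequences were at hand.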

Additional observations from a re-analysis of the deposited data

How the results depend on the processing

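None of the 4 genes was called in any of the 15 alternative settings, which are pseudocounts, filters, scalings, limma-voom, the replicate block and each library left out. The tested genes called in these settings ran from 50 of 18984 without mutant replicate 2 to 1404 of 18983 with limma-voom on the recovered reads. Beside such shares, 0 of 4 says little about these genes. The log2 fold change of zmm4 kept its sign in all 15 settings. Those of the others did not. With median-of-ratios scaling they were 0.091 for si1, 0.17 for zmm16 and 0.072 for zag1, and with limma-voom and that scaling 0.099, 0.18 and 0.072. Upper-quartile scaling gave 0.062 for zmm16. By construction, a scaling moves every gene's fold change together. Without 1 library, si1 ran from -0.39 to 0.17, zmm16 from -0.23 to 0.095, zag1 from -0.29 to 0.0016 and zmm4 from -0.84 to -0.54. The cause was not tested.

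Over all tested genes, 1262 were called (361 rises and 901 falls), against 292 with no filter, 748 with an FPKM of at least 5 and 50 to 1373 without 1 library. The split of rises and falls was 661 and 410 after median-of-ratios scaling and 560 and 596 after upper-quartile scaling. The replicate block gave 715 calls. The deviations of libraries with the same number had correlations of 0.012, -0.38 and -0.33, so the numbers are not taken to pair them, and with the block the adjusted p of zmm4 was 0.13.

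Log2 differences of the within-library ratios ran, without 1 library, from -0.19 to 0.078 for si1 to zmm16, -0.11 to 0.18 for si1 to zag1, -0.034 to 0.21 for zmm16 to zag1, 0.49 to 0.80 for si1 to zmm4, 0.67 to 0.82 for zmm16 to zmm4 and 0.46 to 0.85 for zag1 to zmm4. With 154 to 307 reads per library, zag1 is the gene for which depth limits precision most.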
